A study of Homo sapiens with 2 samples.

Results

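The BTG and TOB genes encode a family of small proteins that restrain cell division. The members considered were BTG1, BTG2, BTG3, TOB1 and TOB2, 5 genes in all, taken as the probe sets whose only gene symbol was one of these names. The rule found 12 probe sets of 4 genes, among 41091 probe sets with 1 gene symbol for 19775 genes on an array of 54675 probe sets. BTG1 had 3 probe sets, BTG3 4, TOB1 2 and TOB2 3. BTG2 had none under this rule and is not analysed here.

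The cells were EOL-1, an established human eosinophilic leukaemia line that expresses the FIP1L1-PDGFRA fusion kinase and depends on it for growth. One culture was incubated for 4 h with 100 nM Glivec (imatinib, an inhibitor of the ABL, KIT and PDGF receptor kinases) and 1 culture was left untreated, both in RPMI medium with serum, penicillin and streptomycin. Each gave 1 biotin-labelled Affymetrix array, so there were 2 arrays, 1 per group. No difference had a replicate check, no test between the cultures was run, and all values are only as precise as single arrays allow.

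All proteins of this family share an N-terminal domain through which they bind the deadenylase subunits CNOT7 and CNOT8 of the CCR4-NOT complex. This complex shortens the poly(A) tail of mRNAs, the first step of most mRNA decay, and the BTG and TOB proteins bring it to target mRNAs or speed its action. In blood cells BTG1 is known for its high expression in resting lymphocytes and for mutations in B-cell lymphomas. Several of these genes are known as targets of transcription factors that act in quiescence or stress, among them the FOXO factors, which kinase signalling through AKT keeps out of the nucleus.

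Values are MAS5 signals, which the authors had scaled between the arrays (the mean without the lowest and highest 2% was 100.014 on both). The floor was the median of all signals, 13.7, below which signals were raised before log2 was taken. It is a chosen bound, not a measured background. A gene was read from its brightest probe set, leaving out those marked for cross-hybridisation where another was present. It was measured if either array exceeded the floor, which held for 12705 genes, among them all 4 genes with a probe set here. Ratios are Glivec over untreated, and counts were made at 2-fold (log2 ratios of 1 or more, either way). The spread between probe sets of the same gene, the only error available, had a pooled SD of 0.24 (log2) in the brightest of 4 signal classes and 0.41 in the dimmest.

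The hybridisation spike-ins, 18 probe sets, had a median log2 ratio of 0.74, so that scaling to them shifted the median of all genes to -0.59 from 0.10. A positive log2 ratio under 0.74 turns negative with that scaling, and all directions below are relative to the bulk of genes. Of the eosinophil markers PRG2 and RNASE2, granule protein genes, had signals of 6302 and 2872 with Glivec and of 4744 and 2146 without. Of 7 eosinophil markers with a probe set, 4 exceeded the floor on each array, but not the same 4. CLC did so in untreated cells alone (19.4, against 13.2 with Glivec). EPX did so with Glivec alone (27.2, against 12.6 in untreated cells), and IL5RA and SIGLEC8 did so on neither array. The summed signal of 3 monocyte markers was 682 with Glivec and 858 without, and that of 3 T cell markers 25.4 and 29.7, where CD3E in untreated cells (21.0) alone exceeded the floor. Of the B cell markers, CD79A had signals of 94.9 with Glivec and 60.03 without and MS4A1 13.7 and 6.93; the erythroid marker HBB had 30.5 and 30.9. The part of other lineages' markers in the results was not tested.

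BTG1 was the member with the largest difference as deposited; with spike-in scaling BTG3 was, at -1.30 against 0.59 for BTG1. The brightest BTG1 probe set had a signal of 5509 with Glivec against 2201 in untreated cells. That is 2.50-fold higher, a log2 ratio of 1.32. Another bright probe set had 4183 with Glivec against 1556 in untreated cells, a log2 ratio of 1.43. The third was dim, with 30.8 against 18.4 and a log2 ratio of 0.75. All 3 probe sets were higher on the Glivec array, and the bright pair differed from each other by less than the probe-set SD of 0.24.

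The BTG1 ratio was above those of 99.1% of all measured genes. Over the alternative settings this share ran from 91.8% to 99.7%, and it was 91.8% both with a pseudocount and with only _at probe sets. High ratios were rarer among bright genes: in the brightest of 4 equal classes of measured genes (3176 genes) 24 were at least 2-fold higher, or 0.756%, and BTG1 ranked 8 in that class. The 7 genes above it, named after their values were seen, were CCNG2, RNA45SN5, PNRC1, KCNE3, TMT1A, TSC22D3 and MARCKS. Their log2 ratios ran from 1.33 to 2.15. CCNG2 encodes cyclin G2, an unconventional cyclin that slows the cell cycle, and TSC22D3 encodes the glucocorticoid-induced leucine zipper protein GILZ. Within 0.5 (log2) of the mean signal of BTG1 the nearest ratios over the 2 arrays were those of SOX4, a transcription factor gene, at 0.89, and of the ribosomal protein gene RPL36, at 0.70.

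**Figure D1:**
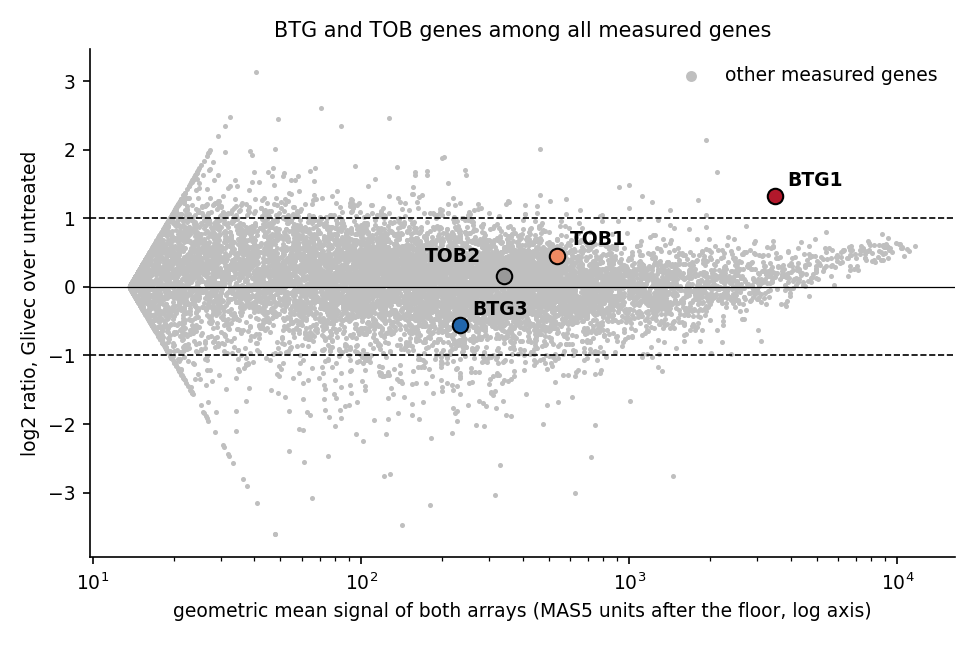
Log2 ratio of Glivec over untreated (vertical axis) against the geometric mean signal of both arrays after the floor (horizontal log axis) for 12705 measured genes in grey, with BTG1, TOB1, TOB2 and BTG3 marked. Dashed lines stand at 2-fold; BTG1, at 1.32, lies above the grey points of similar signal, while TOB1 (0.45), TOB2 (0.15) and BTG3 (-0.56) lie within 2-fold. With spike-in scaling the TOB1 and TOB2 ratios are negative.

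The sequence before the BTG1 start is shown because BTG1 is the member past 2-fold, with that of BTG3, the member with the opposite sign, beside it. Both are the 250 bases before the annotated start from RefSeq (GRCh38.p14), on the minus strand, at chr12:92145847-92146096 for BTG1 and chr21:17612902-17613151 for BTG3. Capitals mark matches to the motifs searched.
BTG1: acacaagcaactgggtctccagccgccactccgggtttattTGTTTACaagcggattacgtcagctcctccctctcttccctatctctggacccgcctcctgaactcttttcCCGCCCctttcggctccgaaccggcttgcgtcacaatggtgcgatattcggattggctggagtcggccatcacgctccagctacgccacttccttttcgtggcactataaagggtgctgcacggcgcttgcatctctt
BTG3: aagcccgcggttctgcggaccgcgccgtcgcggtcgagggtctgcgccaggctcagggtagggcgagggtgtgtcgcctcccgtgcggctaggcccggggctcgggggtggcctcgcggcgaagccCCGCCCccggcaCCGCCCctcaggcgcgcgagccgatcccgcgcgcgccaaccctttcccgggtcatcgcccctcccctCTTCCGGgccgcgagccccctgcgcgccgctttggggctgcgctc

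The first capitals in the BTG1 sequence are the FOXO core GTAAACA read on the other strand, starting 209 bases before the start. Windows of 300 bases, which add 50 bases after the start, were searched on both strands for 6 motifs, and 35116 such windows of the RefSeq table gave the background. The FOXO core was in 3.42% of these windows and, among the windows of the 4 genes, in that of BTG1. The SP1 box GGGCGG, in 45.0% of all windows, was in those of BTG1, BTG3 and TOB2 and in 1 of the 2 of TOB1. BTG3 also held the ETS motif CCGGAAG, found in 10.3% of windows, at 45 bases before the start. The E-box CACGTG (7.26%), the STAT motif TTCNNNGAA (7.66%) and the cyclic AMP element TGACGTCA (1.85%) had no match in any of the 5 windows of these 4 genes. A match describes letters and is not a site.

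BTG1 and the noncoding BTG1-DT start 239 bases apart on opposite strands. The BTG1-DT probe set was below the floor on both arrays, with signals of 8.40 with Glivec and 7.90 in untreated cells. It was chosen after its values were seen.

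TOB1 and TOB2 are the larger members, whose C-terminal parts carry motifs that bind cytoplasmic poly(A)-binding protein. TOB1 had a signal of 629 with Glivec against 459 in untreated cells by its brightest probe set, and 596 against 415 by another. Both probe sets were higher on the Glivec array, at log2 ratios of 0.45 and 0.52, or 1.37-fold and 1.44-fold. They differed from each other by 0.07. The ratio was within 2-fold and above those of 79.2% of measured genes, and it was negative with spike-in scaling, at -0.28.

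TOB2 had signals of 360 with Glivec and 324 in untreated cells by its brightest probe set, a log2 ratio of 0.15. Another probe set had 68.5 with Glivec and 57.0 in untreated cells, a log2 ratio of 0.27. The third was below the floor on both arrays, at 11.9 and 9.03. The TOB2 ratio was smaller than the probe-set SD of 0.24, was above those of 55.3% of measured genes and was negative with spike-in scaling, at -0.59. The antisense gene TOB1-AS1, chosen after its values were seen, had signals just above the floor, 16.8 with Glivec and 15.8 in untreated cells.

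BTG3, also called ANA, was the member with a lower signal. The probe set that stands for it had 192 with Glivec against 284 in untreated cells, a log2 ratio of -0.56, or 1.48-fold lower. A probe set marked for possible cross-hybridisation had 346 with Glivec against 469 in untreated cells (-0.44). A dim one had 35.1 with Glivec against 42.2 in untreated cells (-0.27). All 3 probe sets above the floor on both arrays were lower with Glivec.

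The remaining BTG3 probe set went the other way, with 22.6 with Glivec against 13.7 in untreated cells, where the untreated value lay just under the floor. Averaging the BTG3 probe sets without the cross-hybridising one gave -0.036, so the size of the BTG3 difference depended on that dim probe set. The log2 ratio of -0.56, from the probe set that stands for the gene, was below those of 91.0% of measured genes. With the mean over probe sets the BTG3 value was below those of 62.3%.

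**Figure D2:**
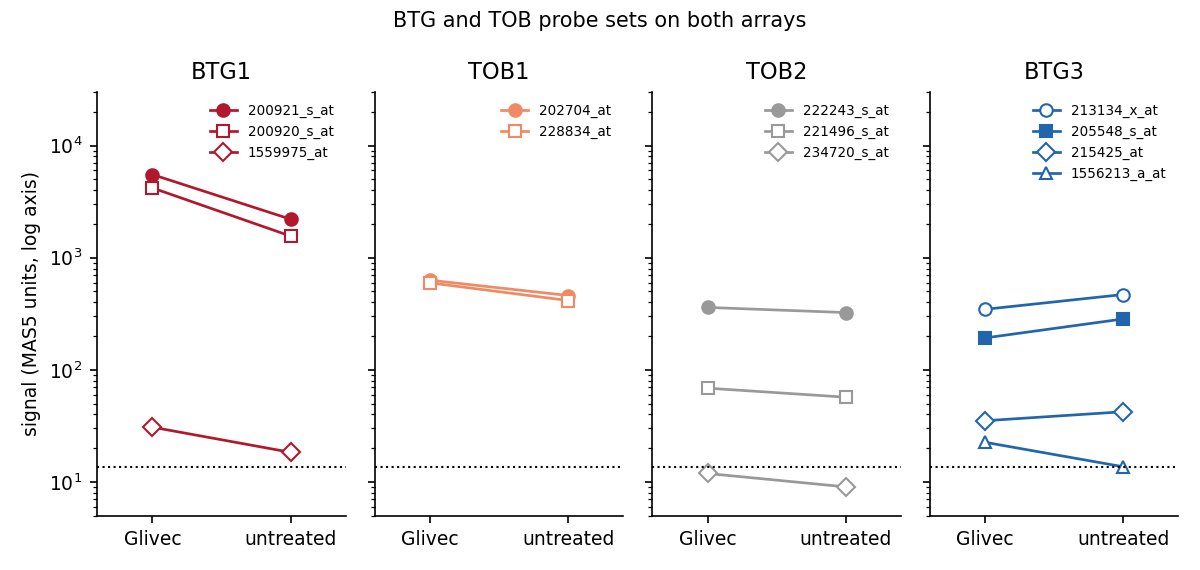
Signal of each BTG and TOB probe set (log axis, MAS5 units) on the Glivec array, at the left of each panel, and the untreated array, at the right; filled symbols are the probe set that stands for the gene and the dotted line is the floor of 13.7. All 3 BTG1 probe sets and both TOB1 probe sets are higher with Glivec as deposited, and 3 of the 4 BTG3 probe sets are lower; with spike-in scaling the TOB1 ratio turns negative.

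Over the family, 10 of the 12 probe sets were above the floor on both arrays, of which 7 were higher and 3 lower with Glivec, before any spike-in scaling. All 3 lower ones were of BTG3 and 3 of the higher ones of BTG1, so these are not independent values. The share over all probe sets is not given here. Of the 4 measured genes, BTG1 was at least 2-fold higher, where 3.13% of all measured genes were, and 0 were at least 2-fold lower, where 2.63% were. BTG1 was within 2-fold with spike-in scaling (0.59), which put BTG3 past it at -1.30, and with only _at probe sets (0.75). The ratio was above 0 for 3 of 4 members and for 59% of all measured genes, and below 0 for 1 of 4 members and 41% of all, so the members' signs are near the background. The median log2 ratio was 0.30 over the 4 members and 0.10 over all measured genes. For all genes the split of 398 higher and 334 lower depended on scaling, with 290 higher and 397 lower genes by quantile normalization. The split was 272 to 448 by median centring, 207 to 476 by loess and 43 to 2461 by scaling to the spike-ins.

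In the order of ratios BTG1 came first, then TOB1, TOB2 and BTG3. BTG1 exceeded TOB1 by 0.87, which was 2.57 times the SD that the spread between probe sets gives for such a difference. TOB1 exceeded TOB2 by 0.30, less than that SD (0.34). TOB2 exceeded BTG3 by 0.71, or 1.89 times the SD. This SD leaves out all variation between cultures. The order was the same with quantile normalization, after loess and with the mean over probe sets, the 3 alternatives that could change it and gave values for the 4 genes.

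**Figure D3:**
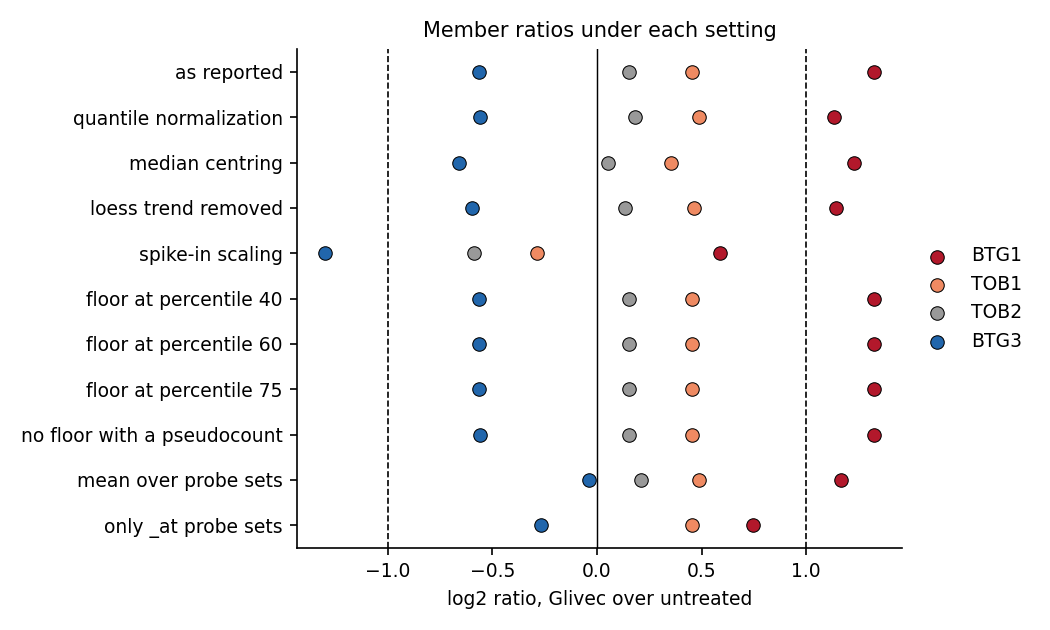
Log2 ratio of Glivec over untreated (horizontal axis) for the 4 members under the reported setting and each of 10 alternatives (rows); dashed lines stand at 2-fold. BTG1 is positive in all rows and below 2-fold with spike-in scaling (0.59) and with only _at probe sets (0.75); TOB1 and TOB2 turn negative with spike-in scaling, and TOB2 has no value with only _at probe sets.

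For the genes of similar signal whose ratios were nearest over the 2 arrays, TOB1 was matched by GPAA1 and ANLN, TOB2 by CTNNAL1 and GABPA, and BTG3 by CFAP298 and IDH3A. Each of these differed from its member by at most 0.00106 (log2), and how often such close matches arise was not tested. The remaining family gene, BTG4, known for its role in oocytes, had 2 probe sets. Both were below the floor on both arrays, with signals of 7.33 and 0.524 with Glivec and 4.28 and 1.60 in untreated cells.

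Genes of the deadenylase that the BTG and TOB proteins bind went both ways. Of 12 CCR4-NOT genes, all measured, 6 had a positive and 6 a negative ratio, none passed 2-fold in either direction and the median was -0.02. CNOT8, one of the catalytic subunits that these proteins contact, had signals of 1761 with Glivec and 1215 in untreated cells, a log2 ratio of 0.54 (0.25 and 0.81 by other probe sets). CNOT7, the other such subunit, had 2233 with Glivec and 2401 in untreated cells, at -0.10. CNOT2, a scaffold subunit, was at 0.61, or 0.36 by another bright probe set and at least 0.56 and 0.77 by dim ones. CNOT9 was at -0.77, or between -0.59 and 0.02 by 3 others, and the CCR4-NOT-associated TNKS1BP1 was at -0.68 near the floor.

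Genes of the other deadenylases and of poly(A)-binding proteins had a median of 0.42 over 7 measured genes, of which 5 were positive and none past 2-fold. PABPC1 was not measured and PABPC4 had no probe set of 1 gene symbol, so the median does not cover these poly(A)-binding protein genes. The median over all measured genes was 0.10, and 59% of them were above 0. Quantile normalization gave this list a median of 0.057, and scaling to the spike-ins gave it -0.32. PAN3, a subunit of the deadenylase that trims long tails, had 1769 with Glivec and 1130 in untreated cells, a log2 ratio of 0.65. PABPC3 was at 0.54 by a cross-hybridising probe set, and its close relatives cannot be told apart from it there. PAIP1, which binds poly(A)-binding protein, was at -0.21 and the nuclease gene PARN at -0.01.

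Adaptors are RNA-binding or miRNA-pathway proteins that, like BTG and TOB proteins, bring CCR4-NOT to mRNAs. Their median was 0.06 over 13 measured genes, against 0.10 over all measured genes. Of the 13, 1 was at least 2-fold higher and 1 at least 2-fold lower, where 3.13% and 2.63% of all measured genes were. TNRC6B, of the miRNA silencing complex, had 249.5 with Glivec against 97.9 in untreated cells, a log2 ratio of 1.35. Its 6 other probe sets ranged from -0.54 to 1.11. NANOS1, an RNA-binding protein gene of the germ line, had 16.4 with Glivec against 70.7 in untreated cells (-2.11), but another probe set near the floor was at 0.32. ZFP36L2, which binds AU-rich elements, had 3726 with Glivec against 2343 in untreated cells (0.67), and 1.10 and 1.48 by other probe sets. PUM2 was at -0.13 and CPEB2, of the proteins that bind cytoplasmic polyadenylation elements, at -0.08.

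Decapping and 5′ decay genes, which act after deadenylation, had a median of 0.10 over 9 genes, with none past 2-fold. DDX6, a helicase that links CCR4-NOT to decapping, had 350 with Glivec and 518 in untreated cells (-0.57). Its other probe sets were at -0.22 and, near the floor, at -0.44. LSM1 was at -0.35. DCP1B was at 0.28 and EDC4 at 0.14. Among the other partners, with a median of -0.06 over 9 genes and none past 2-fold, SMAD5 was lower by all 5 of its probe sets, at -0.95 to -0.61. SMAD5 transmits BMP signals, which TOB1 restrains. The methyltransferase gene PRMT1, whose product binds BTG1, had 2870 with Glivec and 3354 in untreated cells (-0.22). ERBB2, the receptor after which TOB was named, was at least 1.96-fold higher by a dim probe set, with 26.9 with Glivec and an untreated signal below the floor. Its other probe sets were below the floor on both arrays. HOXB9, a homeobox partner of BTG proteins, had 13.6, just under the floor, with Glivec and 23.2 in untreated cells, and its other probe set had the opposite sign (0.69). SMAD9 was at 0.48.

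**Figure D4:**
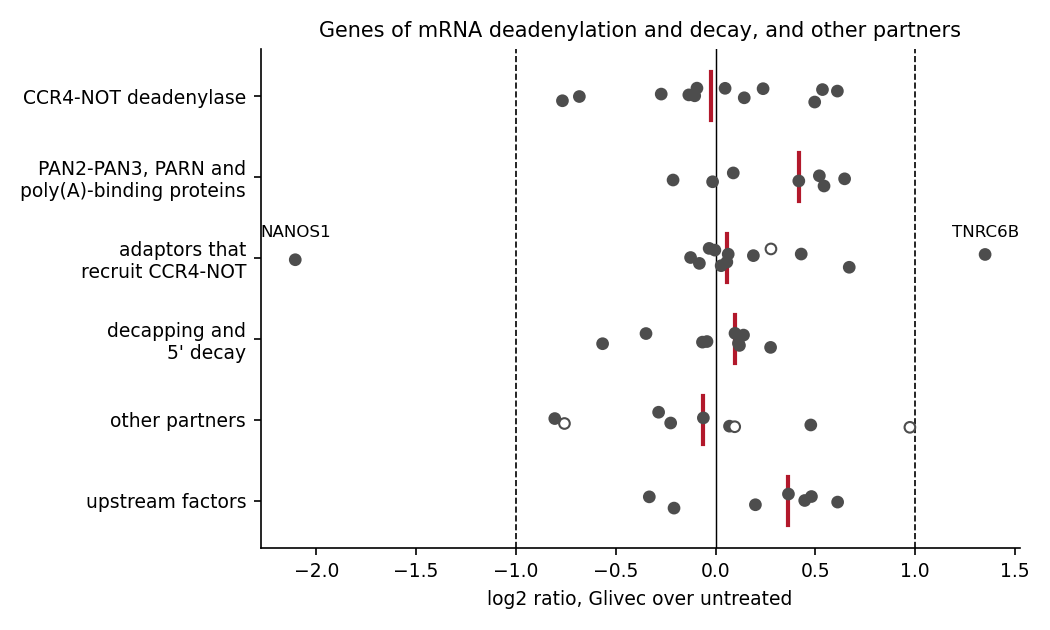
Log2 ratio of Glivec over untreated (horizontal axis) of each measured gene in 6 lists (rows), with the list median as a red bar and dashed lines at 2-fold; open circles are bounds, with 1 array at the floor. TNRC6B (1.35) and NANOS1 (-2.11) are the genes past 2-fold. With spike-in scaling all 6 medians are negative.

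Transcription factors known to act on BTG genes had a median of 0.36 over 7 measured genes, or -0.37 with spike-in scaling. Of these 7 genes, 5 were positive and none past 2-fold. Over all measured genes the median was 0.10 and 59% were above 0. FOXO3 had 829 with Glivec and 644 in untreated cells (0.36). FOXO1 had 46.3 with Glivec and 34.0 in untreated cells (0.45), or 0.17 by a probe set near the floor. Its remaining probe set was below the floor on both arrays. KLF2, a quiescence factor of lymphocytes, was at 0.61, or 0.00034 by a probe set near the floor, and CREB1 was at 0.48, or between -0.07 and 0.37 by 6 others. The NF-kB genes NFKB1 and RELA were at -0.33 and -0.21, but RELA was at -0.006 by its other probe set. These are transcript levels, and the activity of these proteins was not measured.

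For 4 cell cycle and growth genes set beside the members, values were as follows. MYC had 557 with Glivec against 3781 in untreated cells, 6.78-fold lower. CCND3 had 857 with Glivec against 1924 in untreated cells, 2.24-fold lower, and CCND2 51.7 against 83.5 (-0.69). All other probe sets of CCND3 and CCND2 were below the floor on both arrays. CCNG2 had 4076 with Glivec against 921 in untreated cells, a log2 ratio of 2.15. BTG1 had the sign of CCNG2, and BTG3 that of MYC and both cyclin D genes; 59% of all measured genes were above 0 and 41% below.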

How the data were processed

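Expression was measured on 2 Affymetrix arrays of EOL-1 cells. The authors deposited linear signal intensities, 1 per probe set. The submitters' processing notes name MAS5, without a version. Their equal trimmed means show that the arrays had been scaled, so ratios are relative to the bulk of genes. Probe sets were named from the platform annotation, which can be old: 41091 had 1 symbol, 1801 several and 11777 none. Entrez identifiers matched 41037 of them to the RefSeq gene table (GRCh38.p14), which changed 0 symbols.

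Signals under the floor (13.7, the median of non-control signals) were raised to it, and log2 ratios were taken for the brightest probe set of a gene, with _x_at used where no other was present. With 1 array per group there was no test. A ratio with 1 array at the floor is a bound. Named partner genes were the 2 highest and 2 lowest ratios of each of 6 lists and any past 2-fold; genes named beyond this rule (CNOT7, CPEB2 and PRMT1, for example) were chosen after their values were seen. Genes alike were the 2 nearest in ratio within 0.5 in mean log2 signal. Some entries of the lists and markers are not analysed here. The members and lists were chosen with earlier results of these data known. The calculation was tested on simulated data, with planted changes in bright genes that were larger than the difference of any member. That test did not cover smaller changes or changes in genes near the floor. Alternatives were 4 scalings, 3 other floors, a pseudocount of 0.646, loess span 0.3, and 2 ways to choose probe sets, with thresholds of 1.5-fold and 3-fold. Python 3.11.15, numpy 2.4.6, pandas 2.3.3, scipy 1.17.1, statsmodels 0.14.6 and matplotlib 3.10.9 were used.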

Additional observations from a re-analysis of the deposited data

How the results depend on the processing

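No paired analysis was possible because there was a single array of each culture, which also left no replicate to leave out. Shifts of over 1 SD between probe sets are given. With spike-in scaling the log2 ratios were 0.59 for BTG1, -0.28 for TOB1, -0.59 for TOB2 and -1.30 for BTG3, so that 0 members were at least 2-fold higher and 1 lower. Relative to the median of all genes under that scaling, -0.59, they were 1.17, 0.30, 0.00237 and -0.71, against 1.23, 0.36, 0.06 and -0.66 as reported. It gave 43 higher and 2461 lower genes, and list medians of -0.76 for CCR4-NOT, -0.32 for poly(A)-binding proteins and other deadenylases, -0.70 for adaptors, -0.64 for decapping, -0.80 for other partners and -0.37 for upstream factors; this scaling is nearly a shift of every gene. With only _at probe sets BTG1 was at 0.75 and BTG3 at -0.27, and 0 members were 2-fold higher; TOB2 has no such probe set. The mean over probe sets put BTG3 at -0.036. Quantile normalization put the poly(A)-binding list at 0.057. Genes at least 2-fold higher numbered 207 after loess, 735 with the floor at the 40th percentile, 234 at the 60th and 91 at the 75th, where 176 were lower. The pseudocount gave 2408 higher and 1848 lower. At 1.5-fold 1710 were higher and 1058 lower, and at 3-fold 56 and 86, with 0 members higher. The order BTG1, TOB1, TOB2, BTG3 was the same in the 9 alternatives with values for all 4 genes, of which 6 (centring, spike-in scaling, the floors and the pseudocount) could not alter it. Other values kept within 1 SD, or 1.5 times for counts. That SD is of single genes and is wide for a list median: upstream factors were at 0.078 with the floor at the 75th percentile, and the poly(A)-binding list at 0.21 after loess. Signals near the floor limit the dim probe sets. The cause of these shifts was not tested beyond what each alternative does by construction.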
